A study of Macaca mulatta with 2 samples.

Results

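The insulin-like growth factor (IGF) axis was measured through 10 genes: the ligand genes IGF1 and IGF2, the receptor genes IGF1R and IGF2R, and the binding protein genes IGFBP2, IGFBP3, IGFBP4, IGFBP5, IGFBP6 and IGFBP7. They were taken as every probe that carried 1 of these gene names and was not a control, which gave 10 of 18834 named genes, 19 of 41000 gene probes and 46 of the 43376 gene spots on each array. RNA came from primary cultures of Sertoli cells, the somatic cells that nurse germ cells in the seminiferous tubule, from rhesus macaque (Macaca mulatta) testes. The pubertal cultures came from animals aged 18 to 22 months, prepubertal juveniles that were brought into puberty with gonadotropin-releasing hormone (GnRH), infused at a rate of 0.15 µg/min for 2 min once every 3 h over 4 to 5 weeks. The infant cultures were from males under 3 months of age. Every culture, pubertal and infant, had been kept for 24 h with testosterone at 100 nM and follicle-stimulating hormone (FSH) at 5 ng/ml, so no untreated cells stood beside them. Each of 2 two-colour arrays set 1 pubertal culture against 1 infant culture, with the pubertal RNA in Cy5 on array 1 and in Cy3 on array 2. The labels number the cultures separately and call the arrays biological replicates, without saying whether a culture held the cells of 1 animal or more.

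IGF1 and IGF2 are small secreted peptides that act on the receptor tyrosine kinase encoded by IGF1R, which drives growth, survival and protein synthesis through PI3K and AKT and through RAS and MAP kinases. IGF2R, also the mannose 6-phosphate receptor, takes up IGF2 for breakdown and does not signal as a kinase. The binding proteins hold IGFs in body fluids and the cell matrix, and proteases such as pappalysin set them free. In the rodent testis IGF signalling is known to support Sertoli cell proliferation and final Sertoli cell number, and IGF2 is known as a fetal growth factor expressed from an imprinted locus.

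The probes were 60-base human sequences, so macaque RNA was read through human probes, and all 10 names stand in the macaque gene table. Probe positions are those of the files, on human build hg17. The 4 probes shown here passed the intensity filter and span more of the genome than their own length, so each crosses an intron and matches its gene in full only as spliced RNA. They are given to show where the ligand and binding protein results were read, from 5′ to 3′ and in lower case, with no part marked.
IGF1 probe A_24_P304419 (chr12:101315909-101371920, minus strand): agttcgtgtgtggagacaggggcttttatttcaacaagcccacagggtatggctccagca
IGF2 probe A_23_P421379 (chr11:2110978-2111330, minus strand): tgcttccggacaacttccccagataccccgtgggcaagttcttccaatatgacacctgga
IGFBP3 probe A_24_P320699 (chr7:45729454-45730058, minus strand): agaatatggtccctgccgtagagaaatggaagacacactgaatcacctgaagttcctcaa
IGFBP5 probe A_23_P376497 (chr2:217367090-217368378, minus strand): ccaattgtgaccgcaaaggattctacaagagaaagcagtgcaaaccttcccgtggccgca
The other IGF2 probe, A_23_P150609, lies on chromosome 11 at 2106970 to 2107029, and the other IGFBP3 probe, A_23_P215634, on chromosome 7 at 45725848 to 45725907. No run longer than 9 bases was shared between any 2 of the 19 probes.

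Of the 19 probes 17 passed the filter, which asked that 1 age group be well above background on array 1 and on array 2. An IGF1 probe (A_24_P304423) and an IGF1R probe (A_23_P305680) did not pass and were not tested. The first read 110 and 68.9 in pubertal cultures, against 75.3 and 78.8 in infant cultures. The second read 85.9 and 77.8 in pubertal cultures, against 73.4 and 85.1 in infant cultures. In both the groups overlapped. Levels are intensities after loess and between-array scaling, and are compared within a probe only. Ratios are log2 values of pubertal over infant, so a ratio of 1 is a 2-fold difference. Errors are moderated standard errors (SE) from limma with n = 2 array pairs. The share of all spots that stood well above background was 74.8% in the pubertal and 60.9% in the infant channel of array 1, and 62.6% in the pubertal and 71.5% in the infant channel of array 2. Sertoli cell markers passed the filter in 11 of 11 cases, and so did 12 of 12 germ cell and 12 of 12 stromal markers. The number of arrays limits the precision, and a sign test on 2 pairs cannot give an exact p below 0.5.

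IGF2, the fetal growth factor, was the member furthest from equality and was lower in pubertal cultures. Its brighter probe, A_23_P150609, read 8349 and 3312 in the pubertal cultures of arrays 1 and 2, against 19966 and 22279 in the infant cultures. Both pubertal levels lay below both infant levels. The log2 ratios were -1.26 and -2.75, a mean of -2.004 ± 0.40 (SE, n = 2 array pairs), or 4.01-fold lower in pubertal cells. The second IGF2 probe, shown above, read 85.1 and 90.3 in pubertal cultures, against 125 and 146 in infant cultures, again without overlap. Its ratios were -0.56 and -0.69. Its pubertal spot on array 2 was not well above background. The offset added to dim signals shrinks its ratio, which was -1.12 and -1.44 at an offset of 0. With the scanner's own signals its ratios were -1.10 and -1.94. The second probe passed the filter only through the infant channels, so its shared direction adds no separate support. Direction and size rest on the brighter probe. Among all 25768 tested probes the brighter one held place 9 from the lowest mean ratio. The arrays differed in its size, and with median centring in place of loess its ratios were -0.04 and -3.51, so that array 1 gave almost no difference under that scaling.

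IGF1, the growth hormone-dependent ligand, went different ways on the arrays by most of its probes. The probe with 10 spots on each array, A_23_P13907, read 176 and 103 in pubertal cultures, against 105 and 131 in infant cultures, so the groups overlapped. The ratio was 0.75 ± 0.10 on array 1 (SD, 10 spots) and -0.35 ± 0.15 on array 2 (SD, 9 spots). All 10 spots were above 0 on array 1 and all 9 below 0 on array 2. Spots of 1 array repeat a single hybridisation, so their SD holds none of the spread between cultures. The probe shown above behaved alike, at 0.54 and -0.10. A further probe, A_24_P398572, was higher in pubertal cells on both arrays, at 1.03 and 0.21 (mean 0.62 ± 0.30). Its infant spot was not well above background on 1 of the 2 arrays, array 1, and its size depended on the treatment of dim signals: its ratios were 3.26 and 0.75 with the scanner's own signals, a mean of 2.01, and 2.11 and 0.47 at an offset of 0, a mean of 1.29. IGF1 signals were dim, and in Cy5 over Cy3 terms the mean ratio of these 3 probes ran from 0.32 to 0.55. Over the other tested members such values ran from -1.30 for IGFBP4 to 0.75 for the brighter IGF2 probe. Any part of the dye in the disagreement between arrays was not tested.

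Neither receptor gene had a ratio of the same sign on both arrays. IGF1R, the signalling receptor, read 764 and 708 in pubertal cultures, against 875 and 639 in infant cultures. Its ratios were -0.19 and 0.15, with spot SDs of 0.050 and 0.081, and the mean of -0.02 had a 95% interval of -0.66 to 0.61. IGF2R, the clearance receptor for IGF2, read 6271 and 5010 in pubertal cultures, against 5676 and 6632 in infant cultures with its brighter probe, A_23_P334021. The ratios were 0.14 and -0.40, and those of the second IGF2R probe were 0.41 and -0.40. Mean ratios were -0.13 and 0.01, with 95% intervals of -0.81 to 0.55 and -0.74 to 0.76. These intervals bound the difference that 2 arrays can show, and a missed threshold does not show equal levels. With median centring in place of loess the mean turned to 0.11 for IGF1R and to 0.077 for the brighter IGF2R probe.

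**Figure D1:**
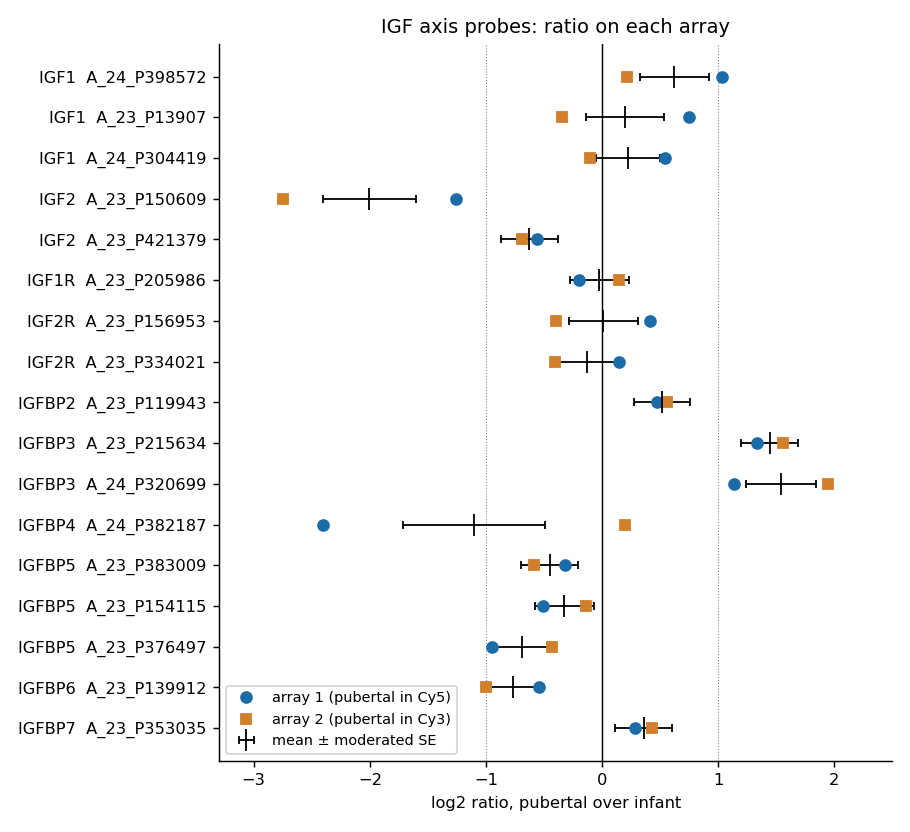
Log2 ratio of pubertal over infant for the 17 tested probes of the IGF axis. Circles are array 1, squares array 2, and black bars the mean with its moderated SE, with dotted lines at a 2-fold difference. Both IGFBP3 probes lie right of 1 on both arrays, the brighter IGF2 probe lies left of -1 on both, and the IGFBP4 probe stands at -2.40 and 0.20. The IGFBP2 points are bounds, since 1 spot on each array was saturated, and its black bar is not to be read as an estimate. With median centring in place of loess IGF2 stands at -0.04 on array 1.

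IGFBP3, the main IGF carrier of serum, was higher in pubertal cultures by both of its probes. Probe A_24_P320699, shown above, read 1802 and 3573 in pubertal cultures, against 823 and 926 in infant cultures. Its ratios were 1.13 and 1.95, a mean of 1.54 ± 0.30 or 2.91-fold. Probe A_23_P215634 read 554 and 1031 in pubertal cultures, against 220 and 351 in infant cultures. Its ratios were 1.33 ± 0.13 on array 1 and 1.55 ± 0.09 on array 2 (SD, 10 spots each), with a mean of 1.44 ± 0.24 (SE) or 2.72-fold. Pubertal and infant levels did not overlap with either probe, and the single spots of the second probe ran from 1.19 to 1.67. The probes lie in different places of the gene and share no long run of bases.

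**Figure D2:**
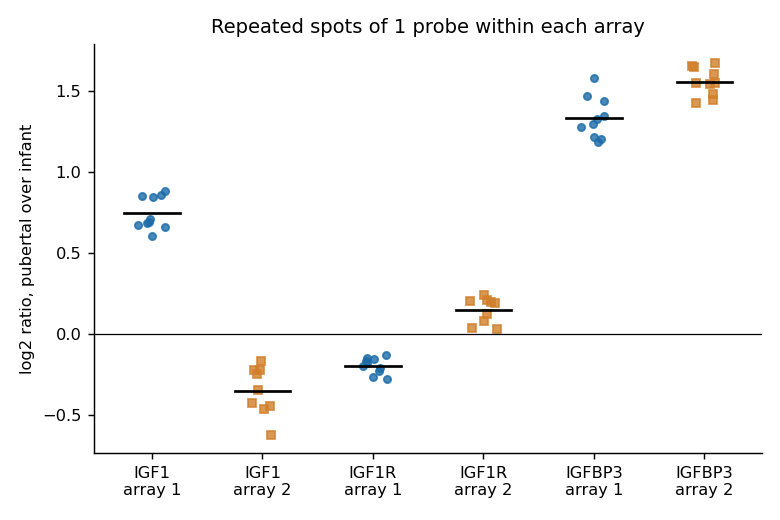
Log2 ratio of pubertal over infant for each used spot of the 3 probes printed 10 times on each array, with a bar at the mean. The IGFBP3 spots lie above 1 on both arrays, while those of IGF1 and IGF1R change sides of 0 between the arrays.

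IGFBP7 was also higher in pubertal cultures on both arrays, by less, and IGFBP2 had positive ratios on both arrays that saturation leaves as bounds. With median centring in place of loess both genes turned to negative ratios on array 2, at -0.36 for IGFBP2 and -0.41 for IGFBP7. IGFBP2, a carrier that prefers IGF2, read 31807 and 54689 in pubertal cultures, against 22910 and 37064 in infant cultures. Its Cy5 spot was saturated on both arrays, the pubertal one on array 1 and the infant one on array 2. The ratio of 0.47 on array 1 is therefore a lower bound and that of 0.56 on array 2 an upper bound. The direction on array 2 is thus not settled, and no mean is given in the text. IGFBP7, a matrix protein that binds IGFs weakly, read 25114 and 23656 in pubertal cultures, against 20652 and 17520 in infant cultures. Its ratios were 0.28 and 0.43, a mean of 0.36 ± 0.24, with no overlap between the groups.

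IGFBP5 and IGFBP6 were lower in pubertal cultures on both arrays. All 3 probes of IGFBP5, a matrix-bound carrier, were on the lower side, though with median centring the brightest turned to 0.75 on array 1 and A_23_P154115 to 0.0048. The brightest, A_23_P383009, read 3287 and 4300 in pubertal cultures, against 4099 and 6451 in infant cultures, with ratios of -0.32 and -0.59. The probe shown above read 130 and 183 in pubertal cultures, against 252 and 248 in infant cultures. Its ratios were -0.95 and -0.43, a mean of -0.69 ± 0.27. The third, A_23_P154115, had ratios of -0.51 and -0.14. Levels of the groups overlapped with the brightest probe and not with the other two. IGFBP6, a carrier with a strong preference for IGF2, read 161 and 194 in pubertal cultures, against 234 and 389 in infant cultures. Its ratios were -0.54 and -1.001, a mean of -0.77 ± 0.26 or 1.71-fold lower, without overlap.

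IGFBP4, a carrier known to be cleaved by pappalysin, had a large ratio on array 1 and a small one of opposite sign on array 2. It read 728 and 1132 in pubertal cultures, against 3857 and 985 in infant cultures. The infant culture of array 1 stood apart from the other 3. The ratios were -2.40 and 0.20, and the mean of -1.10 ± 0.61 describes neither array. With median centring they were -1.47 and -0.37. A single probe with 1 spot on each array stood for the gene.

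**Figure D3:**
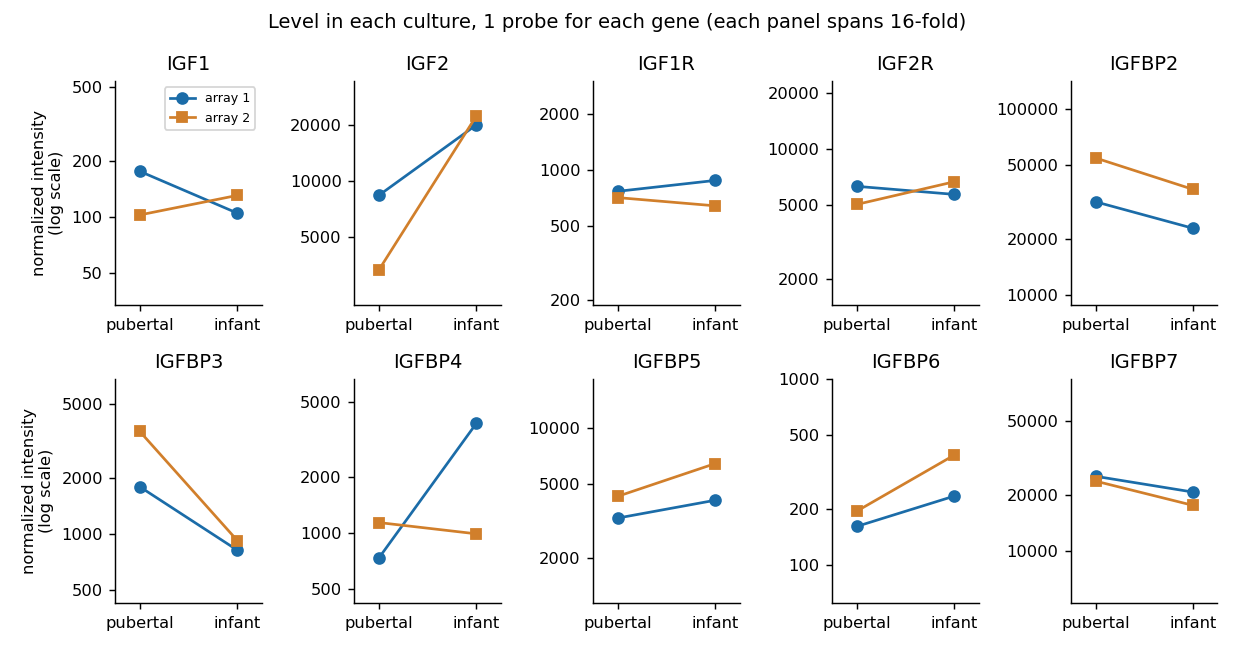
Normalized intensity, on a log axis, in the 2 pubertal and 2 infant cultures for the brightest tested probe of each gene, with lines joining the cultures hybridised to 1 array. IGF2, IGFBP5 and IGFBP6 slope upward to the infant side on both arrays, IGFBP2, IGFBP3 and IGFBP7 downward, and the other 4 panels hold lines of opposite slope. The IGFBP2 levels of the pubertal culture on array 1 and the infant culture on array 2 are saturated. With median centring in place of loess IGFBP2, IGFBP5 and IGFBP7 had opposite signs on the arrays.

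By gene, IGFBP3 and IGFBP7 were higher on both arrays with every tested probe, IGFBP2 had positive ratios with an upper bound on array 2, IGF2, IGFBP5 and IGFBP6 were lower, and IGF1R, IGF2R and IGFBP4 had opposite signs, as did 2 of 3 tested probes of IGF1. With median centring the directions of IGFBP2, IGFBP5 and IGFBP7 no longer held on both arrays with every probe. By probe, 5 of 17 had positive ratios on both arrays (4 without the saturated IGFBP2 probe), beside 23.4% of all tested probes, and 6 were lower, beside 21.9%, so that 11 had 1 sign on both arrays, beside 45.3%. At least 2-fold higher on both arrays were 2 member probes, both of IGFBP3, beside 0.303% of all probes, and at least 2-fold lower was 1, of IGF2, beside 0.299%. Differences of that size that followed the dye and not the age were of like frequency. Cy5 over Cy3 was at least 2-fold higher on both arrays for 0.21% of all probes and lower for 0.473%, with 0 member probes in either direction. The pubertal levels lay above the infant levels without overlap for 4 probes (15.6% of all probes) and below for 5 (14.1%). Probes of 1 gene are not independent, and a probe dim in 1 age group passed the filter only through the other. The second IGF2 probe and the IGF1 probe A_24_P398572 were such probes. A stricter filter, which asked that both age groups be well above background on both arrays, left them out. It left 15 member probes, of which 4 had positive ratios on both arrays and 5 were lower. Over all probes then tested the counts were 5308 and 5168. Their total is not stated here, so no share stands beside the member counts. The median of the 17 mean ratios, with that of the saturated IGFBP2 probe among them, was -0.02, beside 0.01 over all tested probes.

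In limma's test 0 of 17 member probes, and 0 of all 25768 (0.0%), passed an adjusted p of 0.05. The lowest adjusted p among the members were 0.838 and 0.847 for the IGFBP3 probes (A_23_P215634 and A_24_P320699) and 0.854 for the brighter IGF2 probe, by limma with Benjamini-Hochberg adjustment. At an unadjusted p under 0.05 there were 6 member probes, beside 4.05% of all probes. Of these 2 were higher (2.26% of all probes), both of IGFBP3. The other 4 were lower (1.79%), both of IGF2, 1 of IGFBP5 and that of IGFBP6. With the stricter filter, which left out the second IGF2 probe, there were 5, and 953 over all probes then tested, again without a share. The spread rests on 1 residual degree of freedom, to which the prior adds 4.33. Across all probes the 2 arrays' ratios had a Pearson correlation of -0.07, given as a description over probes that share 2 arrays.

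**Figure D4:**
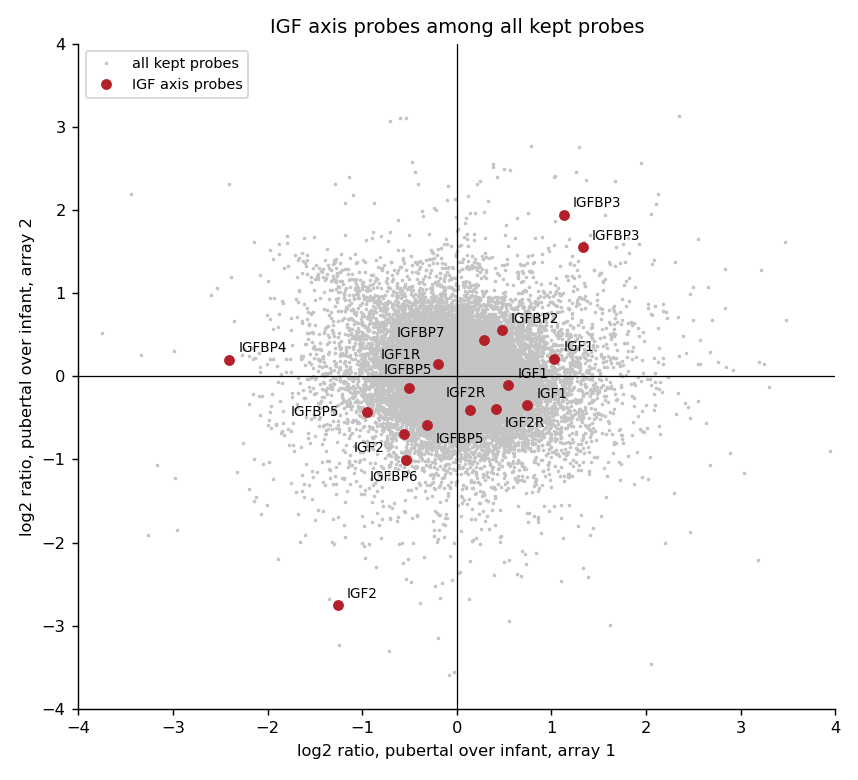
Log2 ratio of pubertal over infant on array 1 (x axis) and array 2 (y axis) for all tested probes (grey) and those of the IGF axis (red, with the gene name). The 2 IGFBP3 probes lie at the upper right and 1 IGF2 probe at the lower left, and 6 grey probes lie beyond the axis limit of 4.

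The authors' deposited table lists 9 of the 19 probes, with values that follow the scanner's ratios. In the authors' deposited table IGF2 (A_23_P150609) is at -1.33 and -2.74, and the IGFBP3 probes are at 1.76 and 1.72 (A_23_P215634) and at 1.297 and 1.91 (A_24_P320699). IGFBP6 is at -0.82 and -1.39 and IGFBP5 (A_23_P376497) at -1.37 and -0.61 in the authors' deposited table. IGFBP4 at -2.46 and 0.09 and IGF1 (A_23_P13907) at 1.76 and -0.95 have opposite signs in the authors' deposited table too, as has IGF1 (A_24_P304419) at 1.58 and -0.49. The second IGF2 probe is at -1.11 on array 1 and has no value for array 2 in the authors' deposited table.

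Genes around the axis were counted in 5 lists, with 1 probe for each gene, and no gene passed limma's test over all probes. Of 12 tested genes for IGF2 mRNA-binding proteins and known regulators of IGF genes 8 were lower on both arrays, beside 21.9% of all probes, and 2 higher, beside 23.4%. Their median mean ratio was -0.51, beside 0.01 over all probes. With median centring 6 were lower, beside 10.3% of all probes, and 1 higher, beside 11.6%. IGF2BP3, an mRNA-binding protein that binds IGF2 transcripts, was at -1.39 and -1.31, with levels of 212 and 242 in pubertal cultures, against 556 and 599 in infant cultures. Its relative IGF2BP2 was at -1.11 and -1.07. HMGA2, a chromatin protein of embryonic growth, was at -1.0004 and -2.01, with a further probe at -0.30 and -0.38. Outside the naming rule and chosen after their values were seen, H19, the imprinted RNA gene beside IGF2, was at -1.38 and -0.65 (further probe -0.28 and -0.32), and PLAG1, a transcription factor that acts on IGF2, at -0.88 and -0.80. IGF2BP1, likewise outside the rule and picked once its ratios were known, stood at 0.17 and 0.55, which median centring turned to -0.05 and 0.57. Under that scaling IGF2BP3 was at -0.83 and -1.74, IGF2BP2 at -0.85 and -1.43 and HMGA2 at -0.66 and -2.43. H19 was then at -0.18 and -1.42 and PLAG1 at -0.54 and -1.14, so each of these was less than 2-fold lower on array 1.

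Of 15 tested IGF carriers, proteases and inhibitors 2 were higher and 5 lower on both arrays (median -0.10), beside 23.4% and 21.9% of all probes. STC2, a stanniocalcin that inhibits pappalysin, was at -1.61 and -1.90, with 257 and 740 in pubertal cultures, against 784 and 2770 in infant cultures, and a further probe was at -1.01 and -1.41. MMP1, a collagenase that also cleaves IGF binding proteins, was at -1.13 and -1.29. With median centring STC2 was at -0.96 and -2.50 and MMP1 at -0.81 and -1.58. The pair on the higher side, picked once the values were known, were MMP9, a gelatinase, at 1.31 and 0.67, and PAPPA, which encodes pappalysin. PAPPA had ratios of 0.69 and 0.85 with its brighter probe and of -0.28 and -0.14 with the other, so its probes disagreed. Under median centring MMP9 was at 1.98 and 0.19 and the brighter PAPPA probe at 1.49 and 0.35. IGFBP1, PAPPA2 and 5 further genes of this list did not pass the intensity filter.

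The signalling lists held no gene at least 2-fold apart on both arrays, and their counts on both arrays stand beside 23.4% higher and 21.9% lower over all probes. Of 22 tested genes of the insulin receptor and adaptors 2 were higher and 5 lower (median 0.03), with the adaptor GRB10 at -0.53 and -0.50 (further probe 0.30 and -0.76) and the feedback inhibitor SOCS1 at -0.14 and -0.84. Of 31 genes of PI3K, AKT, mTOR and FOXO 12 were higher and 3 lower (median 0.11). The PI3K regulatory subunit PIK3R3 was at 0.90 and 0.75. FOXO1A, the array's name for the FOXO1 transcription factor, was at 0.71 and 0.83, with a further probe at -0.38 and 0.86. Of 13 genes of the RAS and MAP kinase arm 0 were higher and 5 lower (median -0.20), with the kinases BRAF at -0.65 and -0.43 and MAP2K1 at -0.35 and -0.68. With median centring the genes lower on both arrays were 0 for the insulin receptor list, 4 for the PI3K list and 3 for the MAP kinase list, and those higher were 1, 3 and 0. Over all probes median centring likewise left 11.6% higher and 10.3% lower. GRB10, SOCS1, BRAF and MAP2K1 then had opposite signs on the arrays.

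**Figure D5:**
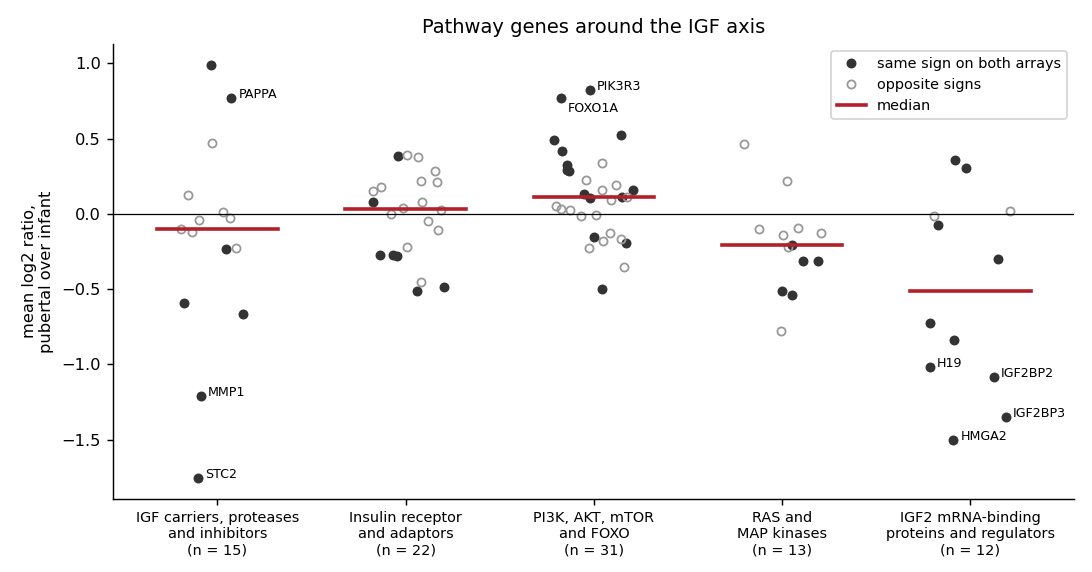
Mean log2 ratio of pubertal over infant for each tested gene of the 5 lists around the IGF axis, with filled points for genes of the same sign on both arrays, open points for opposite signs and a red line at the median. The list with the IGF2 mRNA-binding proteins has the lowest median, at -0.51, and STC2 the lowest single value, at -1.76.

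Markers of other cells had unequal summed levels in the same cultures, each sum taken over the same probes in every culture, and their counts stand beside the 23.4% of all probes higher and 21.9% lower on both arrays. Stromal markers, whose cells are known to make several IGF binding proteins, were lower in pubertal cultures for 10 of 12 genes on both arrays, with summed levels of 33950 and 48153 in pubertal cultures, against 84884 and 73673 in infant cultures. Germ cell markers were higher on both arrays for 11 of 12, with sums of 5577 and 5610 in pubertal cultures, against 3084 and 4812 in infant cultures. UCHL1 made up much of these sums, with 2173 and 2706 in pubertal cultures, against 1437 and 3171 in infant cultures, and was the 1 marker of opposite signs. Sertoli cell markers were higher on both arrays for 7 of 11, with sums of 55276 and 33617 in pubertal cultures, against 27008 and 29903 in infant cultures. INHA made up much of these sums, with 31265 and 18729 in pubertal cultures, against 15646 and 22273 in infant cultures. The pubertal spot of INHA on array 1 was saturated. With median centring 8 stromal markers were lower on both arrays, beside 10.3% of all probes. Germ cell markers then numbered 9 higher and Sertoli cell markers 3 higher, beside 11.6%. Of the other marker lists, 1 of 6 Leydig cell markers was higher and 1 lower, and 3 of 7 peritubular markers were higher and 2 lower, on both arrays. For macrophage markers 3 of 7 were higher and 1 lower, and for endothelial markers 2 of 4 were higher and 1 lower. With median centring these counts were 2 and 1, 1 and 2, 3 and 0, and 1 and 0. Peritubular sums were 14608 and 35788 in pubertal cultures, against 10167 and 48654 in infant cultures. Leydig cell sums were 132450 and 156580 in pubertal cultures, against 126309 and 81600 in infant cultures. Some pubertal Leydig cell marker spots on array 1 were saturated. CDH5, KDR and TEK of the endothelial list, LHCGR of the Leydig cell list and HLA-DRA of the macrophage list did not pass the intensity filter. The part of these cells in the lower IGF2, IGFBP5 and IGFBP6 and the higher IGFBP3 was not tested, and fewer cells of a type and less RNA per cell cannot be told apart in such cultures.

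The genes nearest to IGF2 in the plane of the 2 ratios, among 14206 named genes, were AKR1B10 (-1.35 and -2.68, at a distance of 0.118), OKL38 (distance 0.635) and NNAT (distance 0.735). Nearest to IGFBP3 were GRAMD1B (1.04 and 1.87, at a distance of 0.124), DAZL (distance 0.303) and PIWIL4 (distance 0.357). Likeness here rests on 2 arrays.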

How the data were processed

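Total RNA was labelled and hybridised to 2 two-colour Agilent arrays of human design 014850 (hg17), per the file headers, and both files carry the same slide number. Per the submitters' processing notes, Feature Extraction 9.5.1.1 was used. Its deposited output holds mean and local background intensity, processed intensity and log10 ratios (red over green), per the file headers. The authors' deposited table gives log2 ratios for 4848 probes. Its values, set against the scanner's ratios, had slopes of 1.006 and 1.003 once turned to pubertal over infant. Its normalization is not given in the sources used here.

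Mean intensities were corrected by normexp (offset 50) and normalized by loess in limma 3.58.1 under R 4.3.3, with control spots at weight 0, outlier-flagged spots left out, saturated spots kept and spots of 1 probe averaged. A channel counted as well above background where at least 0.5 of a probe's used spots were. Of 41000 probes 25768 were kept. Levels were scaled with Aquantile. limma (lmFit, eBayes, Benjamini-Hochberg over all kept probes, two-sided) was fitted to the ratios turned by dye, all probes singly, and was tested on simulated data. All members were named. Other genes were named where at least 2-fold apart in 1 direction on both arrays, or where among the 2 of a list with the largest mean ratio of 1 sign on both, with the 3 genes nearest to IGF2 and to IGFBP3. Others are named as chosen after their values were seen. P-values rest on the spread between 2 pairs of cultures, which limma moderates toward the spread over all tested probes. The members and lists were chosen with earlier results of these data known. Alternatives covered normalization, offset, filter, saturation, variance model, unit of fit, single arrays and the authors' values.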

Additional observations from a re-analysis of the deposited data

How the results depend on the processing

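No member probe passed limma's adjusted p of 0.05 under any of the 8 alternatives with a test, where the lowest adjusted p of a member was 0.116, for IGF2 with an intensity trend. Over those alternatives the brighter IGF2 probe kept a mean between -2.04 and -1.78 and the IGFBP3 probes between 1.44 and 1.75. With both arrays in the fit 3 probe means turned sign, all near 0: IGF1R to 0.11 and IGF2R (A_23_P334021) to 0.077 with median centring, and IGF2R (A_23_P156953) to -0.0087 with the scanner's signals. The cause was not tested. With 1 array left out a value is the other array's ratio, given above, so means turned sign for every probe whose ratios differ in sign: without array 1 IGFBP4 was at 0.20, the IGF1 probes A_23_P13907 and A_24_P304419 at -0.35 and -0.10, IGF1R at 0.15 and IGF2R (A_23_P156953) at -0.40. Without array 2 IGF2R (A_23_P334021) was at 0.14.

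Member probes at least 2-fold lower on both arrays numbered 2 with the scanner's signals and 2 at an offset of 0, where the second IGF2 probe joined, and 0 with median centring, which left 3 probes higher on both arrays and 3 at an unadjusted p under 0.05. Under median centring 5 member probes were lower on both arrays. They were not the same set as before: IGFBP4 joined, at -1.47 and -0.37, and the IGFBP5 probes A_23_P383009 and A_23_P154115 dropped out. Over all 25768 probes that scaling gave 2992 higher, 2643 lower and 146 with an unadjusted limma p under 0.05. With 1 probe for each gene the member counts were 3 higher, 3 lower, 3 at an unadjusted p under 0.05 and 1 at least 2-fold higher. Over all genes tested in that way they were 4601, 4295, 792 and 67, given as counts without a share. Over all probes, 326 were at least 2-fold higher and 266 lower with the scanner's signals, 192 and 150 at an offset of 0, and 58 and 29 with median centring, beside 78 and 77 as reported. The adjusted test passed 1 probe at an offset of 0, 1 with median centring, 1 with the stricter filter and 9 with an intensity trend.

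Each ratio already pairs the cultures of 1 array, so no further block was fitted. Signal over background limits the dim IGF1 probes and the second IGF2 probe, and saturation limits IGFBP2.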
